A study of Mus musculus with 6 samples.

Results

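The thrombospondin genes Thbs1, Thbs2, Thbs3 and Thbs4, and Cthrc1, a gene for another secreted matrix protein, were 5 of the 14549 genes measured in the dissected outer layer of the fetal mouse heart. They were selected on gene name and on the difference between mutant and control libraries itself, since Thbs4 and Cthrc1 were among the largest rises, so that difference is described below and not tested for them. Comp, the remaining thrombospondin gene, had no value among the 14549 genes and so was not analysed here.

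Polyadenylated RNA came from epicardium with subepicardium at E16.5, late in heart development. The mutant group, called dKO, was Meis1fl/fl;Meis2fl/fl;WT1-Cre, in which WT1-Cre recombines conditional alleles of 2 homeodomain transcription factor genes; cells without a history of WT1-Cre keep both. The control group was labelled wild-type, and whether it carried the Cre or the conditional alleles is not stated there. Each group had 3 libraries, each a pool of 2 hearts of 1 genotype, and the hearts came from at least 3 litters. Libraries keep the numbers of their titles, which are control 1, 2 and 4 and dKO 1, 2 and 3.

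Thrombospondins are large, calcium-binding, matricellular glycoproteins: they sit in the matrix and act on cells, matrix assembly and growth factors more than they bear load. Thbs1 and Thbs2 form trimers and carry type 1 repeats, through which they bind CD36 and curb blood vessel growth, whereas Thbs3 and Thbs4 form pentamers without those repeats. Cthrc1 (collagen triple helix repeat containing 1) is made by activated fibroblasts and smooth muscle cells of injured vessels and hearts, and has been linked to Wnt planar cell polarity signalling and to collagen production.

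Promoter sequences are shown because the members did not move together, and so that the letters in front of genes of opposite direction can be compared. They are the 250 bases before the start of the gene in RefSeq (build GRCm38.p6), 5′ to 3′ on the strand of the gene, and 3 of the 5 members had an entry (Thbs2, Thbs3 and Thbs4). Capitals mark matches to the SMAD motif CAGACA or the TEAD motif CATTCC on either strand. The MEIS motif TGACAG and the AP-1 motif TGANTCA were also searched on both strands and were not found in these 3 windows. The intervals are chr17:14694263-14694512 (minus strand) for Thbs2, chr3:89214930-89215179 (plus strand) for Thbs3 and chr13:92794819-92795068 (minus strand) for Thbs4.
Thbs2: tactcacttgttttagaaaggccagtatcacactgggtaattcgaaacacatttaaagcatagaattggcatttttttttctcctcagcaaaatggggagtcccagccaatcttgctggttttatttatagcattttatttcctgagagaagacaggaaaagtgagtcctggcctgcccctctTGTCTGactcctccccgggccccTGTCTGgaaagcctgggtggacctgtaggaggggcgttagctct
Thbs3: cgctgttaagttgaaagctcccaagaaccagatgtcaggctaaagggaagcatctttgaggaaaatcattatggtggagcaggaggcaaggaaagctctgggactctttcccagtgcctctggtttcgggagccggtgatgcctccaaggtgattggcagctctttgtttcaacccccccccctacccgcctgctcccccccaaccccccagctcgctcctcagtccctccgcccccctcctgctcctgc
Thbs4: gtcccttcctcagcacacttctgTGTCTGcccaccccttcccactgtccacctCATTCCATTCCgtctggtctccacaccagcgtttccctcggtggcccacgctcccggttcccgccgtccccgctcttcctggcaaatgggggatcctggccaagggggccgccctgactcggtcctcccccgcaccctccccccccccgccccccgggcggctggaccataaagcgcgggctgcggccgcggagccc
The Thbs2 window held TGTCTG, the SMAD motif read on the other strand, 67 and 44 bases before the start. The Thbs4 window held the TEAD letters at 197 and 192 bases before the start, in copies that share 1 base, and TGTCTG at 227. No match was found in the Thbs3 window. Among 32851 RefSeq promoters of this length, 17.1% held the SMAD letters (2.09% at least 2 times), 12.6% the TEAD letters (1.02% at least 2 times), 15.9% the MEIS letters and 6.75% the AP-1 letters. Guanine and cytosine made up 70.8% of the Thbs4 window, with 19 CpG, 58.8% of the Thbs3 window, with 6 CpG, and 46.8% of the Thbs2 window, with 3 CpG; the median over all promoters was 52.4%. These matches describe letters only, since no binding was measured.

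Values below are normalised read counts, scaled to 1e6 reads of an adjusted library size, and rest on 13146322 to 20635676 reads per library. A log2 change is the mean of log2(value + 1) in dKO minus that in control, with the standard error (SE) of a linear model in limma, and this scale understates the change of low genes. All 10 epicardial marker genes and all 8 fibroblast marker genes fell in dKO, with summed levels of 1753 to 2548 against 211 to 289 and of 19379 to 22189 against 6683 to 9006. All 12 cardiomyocyte markers rose (4340 to 9778 against 22810 to 26559, lowest in control 1), as did 6 of 8 smooth muscle and pericyte markers (632 to 986 against 1894 to 2140). The smooth muscle genes Myh11 (log2 change -0.20, limma adjusted p = 0.864) and Tagln (0.35, limma adjusted p = 0.385) were not among those that rose. Acta2 was the largest part of that sum (255 to 522 against 1015 to 1286). Endothelial markers summed to 995 to 1465 against 1212 to 1381, and 1 of 7 fell, Tek. Macrophage markers summed to 355 to 523 against 162 to 209, and 4 of 7 fell. Of Schwann cell and neuronal markers only 2 each had values, with none changed. No marker with values was at 0 reads in any library. Epicardial markers were thus present in all libraries and far lower in dKO. In bulk tissue, fewer cells of a type and less RNA per cell cannot be told apart, and the part of these markers in the results below was not tested. Of the targeted genes, Meis2 was 86.1, 85.6 and 63.3 in the control libraries against 44.5, 34.8 and 44.5 in the mutant ones (log2 change -0.90, limma adjusted p = 0.0035), and Meis1 106, 63.6 and 63.4 against 58.5, 74.1 and 65.0 (limma adjusted p = 0.521); counts over whole genes do not measure the deleted part.

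The 5 genes split in direction. Thbs4 and Cthrc1 were higher in every dKO library than in any control library, and Thbs1, Thbs2 and Thbs3 were lower in every dKO library than in any control library. Over all genes, 19.3% were higher and 21.1% lower without overlap, and nothing is read from the members' counts against these shares because the same contrast chose them.

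**Figure D1:**
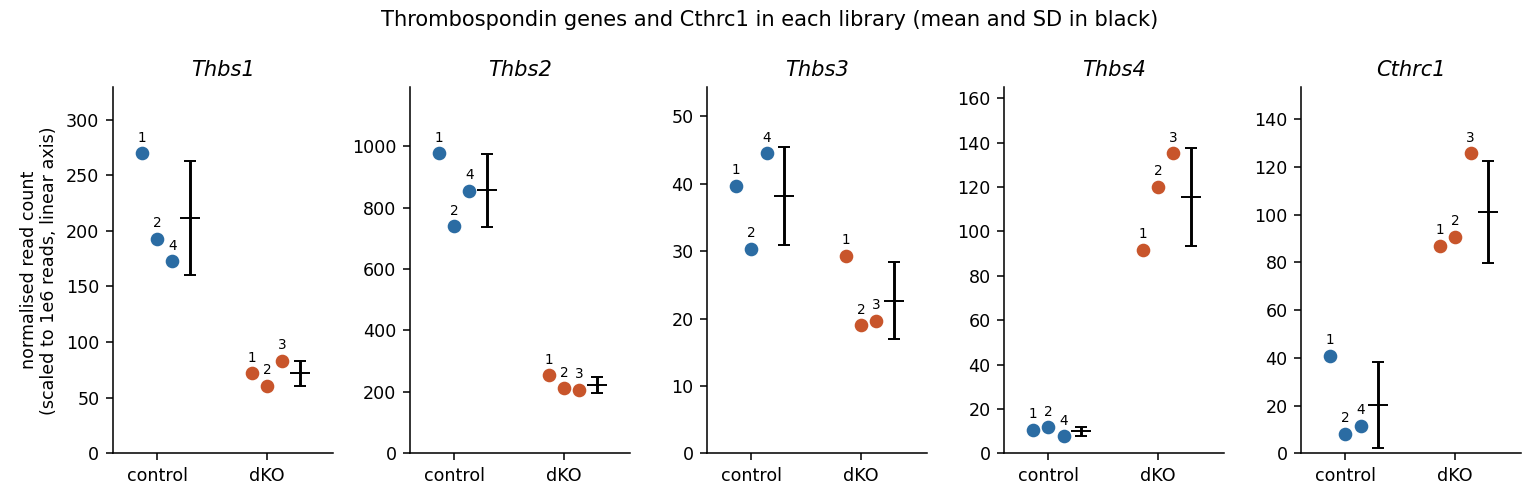
Normalised read count (linear axis from 0, one scale per gene) of each member in the 3 control libraries (blue) and 3 dKO libraries (orange), with library numbers above the points and the mean and SD in black. Thbs4 lies at 7.71 to 11.6 in controls and 91.7 to 135 in dKO, Thbs2 at 739 to 977 in controls and 206 to 254 in dKO, and control 1 stands above the other controls for Cthrc1 (40.7).

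Among the type 1 repeat thrombospondins, Thbs2 was the most abundant member in control tissue. It is made by fibroblasts, and without it collagen fibrils assemble abnormally. Thbs2 (ENSMUSG00000023885, chromosome 17, 14665500 to 14694235, minus strand, GRCm38) was 977, 739 and 855 in control 1, 2 and 4. The values for dKO 1, 2 and 3 were 254, 212 and 206. The lowest control was thus 2.91 times the highest dKO library, and the spread within each group was small beside that gap. The Thbs2 mean went from 857 ± 119 (SD, n = 3) to 224 ± 26.3 (SD, n = 3), 26.1% of the control level, with a log2 change of -1.93 (SE 0.15). These values rest on 2859 to 15813 reads per library.

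Thbs1 is stored in platelets, is made by many stromal cells and can activate latent TGF-beta. Thbs1 (ENSMUSG00000040152, chromosome 2, 118111876 to 118127133, plus strand) was 270, 193 and 173 in control 1, 2 and 4. It stood at 72.0, 60.6 and 83.4 in dKO 1, 2 and 3. Control 1 was the highest control, at 1.48 times the mean of the other two, and the lowest control was 2.07 times the highest dKO library. The Thbs1 mean was 212 ± 51.3 (SD, n = 3) in control and 72.0 ± 11.4 (SD, n = 3) in dKO, 34.0% of control. Its log2 change was -1.53 (SE 0.18), and -0.59 with the mean log2 value of the cardiomyocyte markers as a covariate. Control libraries had 7.54, 8.56 and 8.75 for that covariate, against 10.05, 10.07 and 9.88 for dKO, so it and the genotype cannot be told apart. Platelet and megakaryocyte markers, of which 4 of 7 had values and 1 fell, Pf4 (log2 change -2.14), summed to 26.2 to 43.0 in controls and 9.84 to 11.1 in dKO. Pf4 alone was 21.4 to 34.4 in controls and 4.63 to 5.68 in dKO. Ppbp (-0.90), Itga2b (-0.12) and Gp1ba (0.12) did not pass. A long noncoding gene on the other strand, Gm29233, shares 3.42% of the exonic bases of Thbs1, and the library kit is not stated to keep strand.

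Thbs2 stood above Thbs1 in all 6 libraries. Per kb of exon, which allows levels of different genes to be compared, Thbs2 was 3.14, 3.32 and 4.30 times Thbs1 in control 1, 2 and 4. In dKO 1, 2 and 3 it was 3.06, 3.03 and 2.14 times Thbs1. The ratio was lower in each dKO library than in any control, by little (3.06 against 3.14 at the closest).

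Of the pentameric thrombospondins, Thbs3, known from bone growth and the stressed heart, differed least. Thbs3 (ENSMUSG00000028047, chromosome 3, 89215180 to 89226837, plus strand) was 39.7, 30.3 and 44.5 in control 1, 2 and 4. Its dKO values were 29.3, 19.0 and 19.7 for dKO 1, 2 and 3. Control 2 and dKO 1 nearly met, with a ratio of 1.04. The Thbs3 mean was 38.2 ± 7.21 (SD, n = 3) in control and 22.7 ± 5.77 (SD, n = 3) in dKO, 59.3% of control, with a log2 change of -0.74 (SE 0.21). The gene Mtx1 on the other strand shares 6.59% of the exonic bases of Thbs3, so some reads may belong to either gene. Mtx1 itself went the other way, at 13.7 ± 1.85 (SD, n = 3) in control and 19.4 ± 0.787 (SD, n = 3) in dKO, which did not pass (log2 change 0.48, limma adjusted p = 0.0816). Of the exonic bases of Mtx1, 30.1% are shared with Thbs3 or with Gm43737, so its value is open to the same doubt.

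Thbs4 is found in tendon, nerve and muscle, and in the heart it is induced by pressure overload and binds the stress sensor Atf6 in the endoplasmic reticulum. Thbs4 (ENSMUSG00000021702, chromosome 13, 92751590 to 92794818, minus strand) was 10.7, 11.6 and 7.71 in control 1, 2 and 4. In dKO 1, 2 and 3 it was 91.7, 120 and 135. The lowest dKO library was 7.87 times the highest control, and the relative spread was alike in both groups (20.4% and 19.1% of the mean). The Thbs4 mean went from 10.005 ± 2.05 (SD, n = 3) to 116 ± 22.1 (SD, n = 3), which is 11.6-fold. Its log2 change of 3.41 (SE 0.19) ranked 2 among all genes that were higher in dKO. At least 121 reads lay behind each Thbs4 value, and no other annotated gene shares its exonic bases.

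Cthrc1 was the sixth largest rise by the same ranking, with a less certain size. Cthrc1 (ENSMUSG00000054196, chromosome 15, 39076932 to 39087121, plus strand, 5 exon blocks) was 40.7, 8.14 and 11.4 in control 1, 2 and 4. In dKO 1, 2 and 3 it was 87.0, 90.8 and 126. Control 1 was 4.17 times the mean of the other controls, a ratio reached by 36 of 11498 genes with a control mean of at least 5 (0.313%), whereas for Thbs4 it was 1.10. Even so, the lowest dKO library was 2.14 times control 1. The Cthrc1 mean was 20.1 ± 17.9 (SD, n = 3) in control and 101.2 ± 21.3 (SD, n = 3) in dKO, which is 5.04-fold. Its log2 change was 2.59 (SE 0.45), 3.24 without control 1 and 5.52 with the cardiomyocyte covariate. Cardiomyocyte markers were lowest in control 1, the control with the highest Cthrc1, and highest in the dKO group as a whole. Control 1 stood apart in other genes too. The smooth muscle marker Myh11 was 18.0 in control 1 against 1.76 and 1.43 in controls 2 and 4. The sum of the smooth muscle and pericyte markers was instead lowest in control 1 (632 against 942 and 986). The part of these differences in the Cthrc1 value of control 1 was not tested. At least 127 reads lay behind each Cthrc1 value.

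The order of the members' levels per kb of exon changed between groups. In control, Thbs2 led at 122 ± 16.9 (SD, n = 3), followed by Thbs1 at 34.9 ± 8.44 (SD, n = 3). Cthrc1 came next at 12.6 ± 11.3 (SD, n = 3) and Thbs3 at 7.92 ± 1.50 (SD, n = 3), and these neighbours overlapped, with Cthrc1 at 5.11 and 7.15 in controls 2 and 4. Thbs4 was last at 3.04 ± 0.622 (SD, n = 3). In dKO, Cthrc1 led at 63.5 ± 13.4 (SD, n = 3), and Thbs4 at 35.2 ± 6.73 and Thbs2 at 31.9 ± 3.76 (SD, n = 3 each) could not be ordered beyond their spread. Thbs1 at 11.9 ± 1.87 and Thbs3 at 4.70 ± 1.20 (SD, n = 3 each) closed the dKO order. Dividing by the longest coding transcript instead of all exons kept the control order but put Thbs2 (37.9) above Thbs4 (36.2) in dKO.

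The summed level of the 4 thrombospondins per kb was 168 ± 24.7 (SD, n = 3) in control and 83.7 ± 4.06 (SD, n = 3) in dKO, and its makeup shifted. Thbs2 held 72.8% ± 2.18 of the sum in control and 38.3% ± 5.51 in dKO (SD, n = 3 each). Thbs4 held 1.84% ± 0.504 in control and 41.9% ± 6.94 in dKO (SD, n = 3 each). Per kb, Thbs2 was 43.1, 29.8 and 52.0 times Thbs4 in control 1, 2 and 4 but 1.30, 0.827 and 0.714 times Thbs4 in dKO 1, 2 and 3. Only dKO 1 thus still had more Thbs2 than Thbs4 among the dKO libraries. Thbs1 held 20.6% of the sum in control and 14.1% in dKO, and the Thbs3 share was 4.73% and 5.64%.

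**Figure D2:**
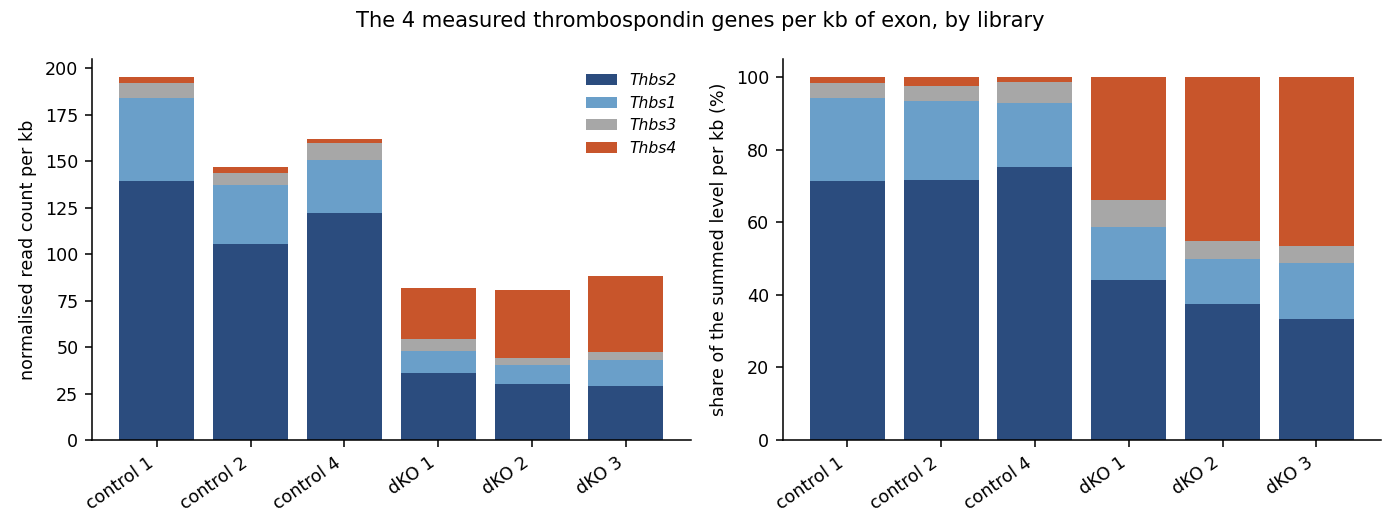
Stacked normalised read counts per kb of exon (left, linear axis) and shares of their sum in percent (right) for Thbs2, Thbs1, Thbs3 and Thbs4 in each of the 6 libraries. The control bars are mostly Thbs2 (72.8% on average), and in the shorter dKO bars Thbs4 holds 41.9% on average.

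Per kb of exon, Cthrc1 stood above Thbs4 in all 6 libraries. It was 7.89, 1.44 and 3.05 times Thbs4 in control 1, 2 and 4. For dKO 1, 2 and 3 the ratio was 1.96, 1.56 and 1.92, inside the control range and less spread. Both genes were lowest in dKO 1 and highest in dKO 3 of the dKO group, but among controls Cthrc1 was highest in control 1 and Thbs4 in control 2.

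Profiles were compared as the root mean square difference of log2(value + 1), each centred on its own mean over the 6 libraries, among 10823 genes with a mean of at least 5. The most similar profile to Thbs4 was that of Cxcr4, a chemokine receptor gene (0.409), then Ctnna2 (0.480), an alpha-catenin gene, and Rec8 (0.668), a meiotic cohesin gene. For Cthrc1 it was again Cxcr4 (0.443), then Sema7a (0.586), a semaphorin gene, and Esm1 (0.588), a gene of endothelial cells. Cxcr4 was 6.70, 3.42 and 2.83 in control 1, 2 and 4, against 28.9, 38.4 and 36.9 for dKO 1, 2 and 3, and like Cthrc1 it was highest among controls in control 1. Thbs4 and Cthrc1 differed from each other by 0.792, more than from the genes just named. Cxcr4, Ctnna2, Rec8 and Esm1 had control means of 4.31, 2.03, 1.30 and 1.95. They reached a mean of 5 only through their dKO values, so the difference between the groups helped to choose them.

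The lowered members had closer neighbours in profile. For Thbs2 these were the olfactory receptor gene Olfr1033 (0.110), Gfpt2 (0.130) and Tmem119 (0.138), a membrane protein gene that also acts in bone. For Thbs1 they were Ptk2b (0.089), a focal adhesion kinase gene, Man1a (0.095), a mannosidase gene, and AI464131 (0.115). For Thbs3 they were Plpp3 (0.057), a lipid phosphatase gene, the elastin gene Eln (0.075) and Nova2 (0.079), of whose exonic bases 31.7% are shared with another gene. Thbs1 and Thbs2 differed by 0.296 and Thbs3 from them by 0.518 and 0.616. The difference between the groups enters each profile, so these distances are not independent of it.

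**Figure D3:**
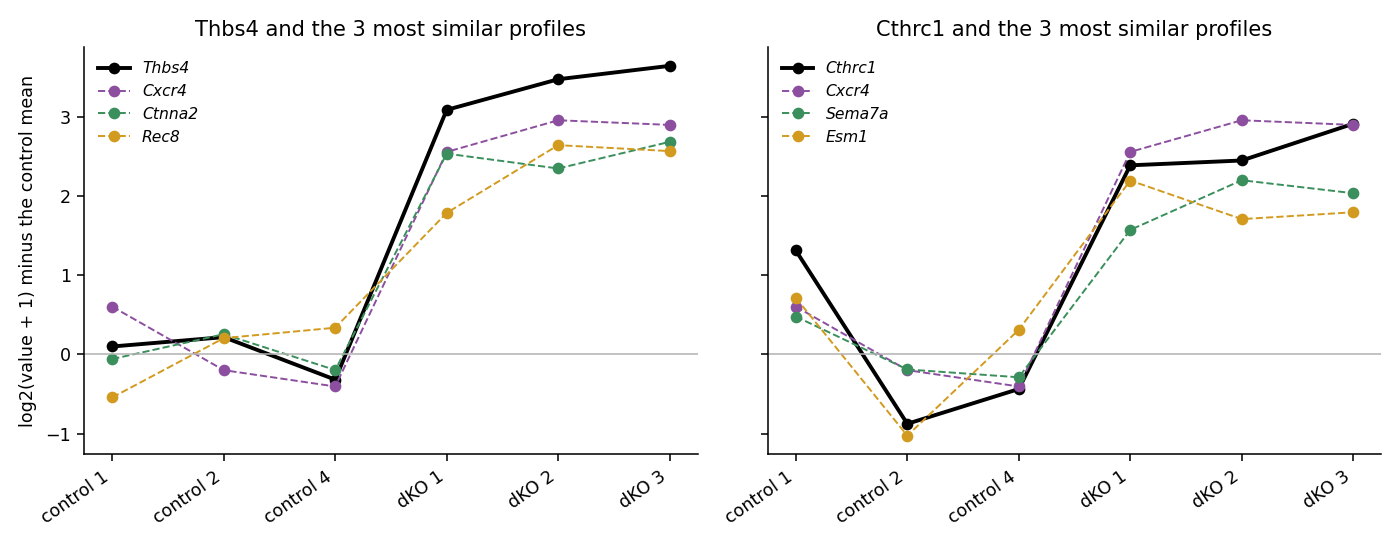
Log2(value + 1) minus the control mean in each library for Thbs4 (left) and Cthrc1 (right), as black lines, with the 3 genes of most similar profile as dashed lines. Cxcr4 is the closest to both (0.409 and 0.443), and Cthrc1, unlike Thbs4, spreads widely among the controls.

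The nearest genes beside Thbs4 and Cthrc1 on the chromosome had log2 changes from -0.60 to 0.61. Serinc5, a serine incorporator gene 39.642 kb from Thbs4, fell from 75.4 ± 10.5 to 49.5 ± 5.78 (SD, n = 3 each; log2 change -0.60, limma adjusted p = 0.0170). On the other side, Mtx3, a mitochondrial import gene at 49.941 kb, rose from 29.99 ± 5.82 to 45.9 ± 3.01 (SD, n = 3 each; log2 change 0.61, limma adjusted p = 0.0255). Beside Cthrc1, the Wnt receptor gene Fzd6 at 38.743 kb had a log2 change of 0.19 (limma adjusted p = 0.545) and the folate carrier gene Slc25a32 at 4.109 kb one of -0.15 (limma adjusted p = 0.621). The genes beside the lowered members, named after their values were seen, mostly lay farther off. By Thbs2, 1600012H06Rik at 248.948 kb (-1.46) and Smoc2 at 260.709 kb (-2.52) fell. Gpr176 at 149.976 kb from Thbs1 (-2.15) and Krtcap2 at 19.128 kb from Thbs3 (-0.85) fell too. Fam98b at 840.335 kb from Thbs1 (0.22) and Mtx1, which overlaps Thbs3, did not pass. The rise of Mtx3 was lost without control 2 or any 1 of the dKO libraries (limma adjusted p from 0.0652 to 0.0723), and the fall of Serinc5 without dKO 1 (limma adjusted p = 0.0514).

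Receptors through which thrombospondins act were compared with a share of 22.0% of all genes that changed (limma adjusted p under 0.05), 9.81% upward and 12.2% downward. The upward count over all genes, 1427, was 905 without dKO 2 and 881 without dKO 3. Of 17 receptor genes, 2 rose and 5 fell (41.2% changed), with a median log2 change of -0.46 against 0.0016 over all genes. Cd47, the receptor for the C-terminal part of thrombospondins, fell from 124 ± 6.03 to 67.0 ± 7.01 (SD, n = 3 each; log2 change -0.88, limma adjusted p = 0.000876). Cd36, which binds the type 1 repeats of Thbs1 and Thbs2, was 436 in control and 330 in dKO and did not pass (-0.39, limma adjusted p = 0.0777). Cacna2d1, a calcium channel subunit that is a neuronal thrombospondin receptor and is also made by cardiomyocytes, rose from 57.2 ± 2.34 to 100.1 ± 13.8 (SD, n = 3 each; 0.79, limma adjusted p = 0.00258). The others that passed were the lipoprotein receptor Vldlr (0.78), the proteoglycan Sdc4 (-1.59), the integrin chains Itga4 (-1.42) and Itga3 (-1.01) and the endocytic receptor Lrp1 (-0.90), while the main partner chain Itgb1 did not (0.07).

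Of 15 other measured matricellular genes, 2 rose, Tnc and Wisp1 (1.02). That share of 13.3% was near the 9.81% of all genes that rose, so the rises are no result about the members. In the same list 5 fell, 33.3% against 12.2% of all genes (46.7% changed against 22.0% of all genes, median -0.54). Tnc, the tenascin C gene of remodelling tissue, went from 170 ± 8.63 to 403 ± 42.0 (SD, n = 3 each; log2 change 1.23, limma adjusted p = 0.000117). Smoc2, which is also the nearest gene of the table on 1 side of Thbs2, at 260.709 kb, fell from 416 ± 37.6 to 71.9 ± 12.3 (SD, n = 3 each; -2.52, limma adjusted p = 5.26e-06). Tnxb (-2.25), Nov (-2.04), Matn2 (-1.36) and Sparc (-1.28) fell too, and Postn, the periostin gene, did not pass (0.42). Of 24 measured genes whose proteins carry type 1 repeats like those of Thbs1 and Thbs2, 3 rose and 8 fell (45.8% changed, median -0.41). The Wnt agonist genes Rspo1 (-3.81) and Rspo2 (-2.09) and the fibrillin-binding Thsd4 (-1.96) fell, and the netrin receptor Unc5b (1.08), Hmcn1 (0.77) and Cilp (0.0933 to 2.78 in mean level) rose. Cilp reached 1 only in the dKO libraries (0.0317 to 0.216 in controls) and Rspo2 only in the controls. Each thus passed the filter through the group where it was high. With a filter at 5, 2 of 16 rose and 7 fell.

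**Figure D4:**
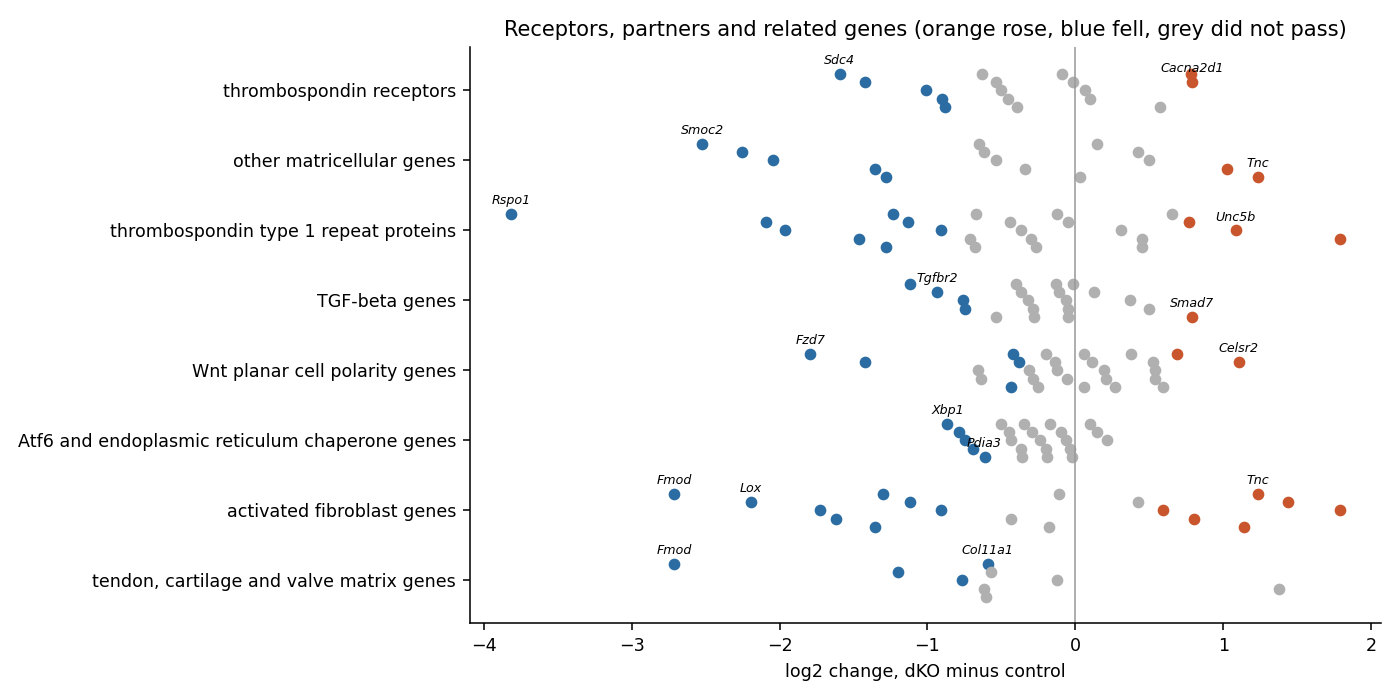
Log2 change (dKO minus control) of every measured gene in 8 lists related to the members, with genes that rose in orange, fell in blue and did not pass in grey. Receptor genes lie on both sides of 0 with a median of -0.46, and among activated fibroblast genes Tnc (1.23) and Lox (-2.19) lie far apart.

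Activated fibroblast genes, the company in which Cthrc1 is usually found, moved both ways: 6 of 18 rose and 8 fell (77.8% changed against 22.0% of all genes, median -0.31). The smooth muscle actin gene Acta2 (1.44), Tnc (1.23), Runx1 (1.14), Meox1 (0.80), Ddah1 (0.59) and Cilp rose. Fmod (-2.71), which encodes a collagen-binding proteoglycan, Lox (-2.19), for collagen cross-linking, and the collagen gene Col1a1 (-1.73) were among those that fell, and Postn, Fn1 (-0.18), Ltbp2 (-0.11) and Col12a1 (-0.43) did not pass. The rising count was the less steady, at 2 without dKO 2, 3 without dKO 1 or dKO 3 and 4 without control 4. When 1 library was left out, 6 to 9 fell, and the total was 9 without dKO 3. Part of the drop in rises was fixed by the filter. Cilp reached 1 only in the dKO libraries, so leaving out any 1 of them took it out of the fit (17 genes in place of 18). With a filter at 5, 5 of 17 rose and 8 fell. Acta2 is also a smooth muscle marker, and Col1a1, Lox and Col3a1 (-1.35), which all fell, are also fibroblast markers. The sums of both marker lists are given above. Tendon is a tissue where Thbs4 is found. Of 9 measured genes of tendon, cartilage and valve matrix, 0 rose by limma or edgeR (1 at an unadjusted limma p under 0.05, Col2a1 at 1.37). In this list 4 fell (Fmod, Hapln1 at -1.20, Sox9 at -0.76 and Col11a1 at -0.59), 44.4% of the 9 against 22.0% of all genes. Without control 4 or without dKO 2, 2 of these fell, and without control 1, 1 rose (Col2a1) and 3 fell.

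The 3 pathways to which members are tied changed in shares near the 22.0% of all genes, so their counts are no result about the members. Of 20 TGF-beta genes, tied to Thbs1, 1 rose and 4 fell (25.0% changed, median -0.21). The ligand gene Tgfb3 (-0.75), the receptor genes Tgfbr1 (-0.76) and Tgfbr2 (-0.93) and Lrrc32 (-1.12), which anchors latent TGF-beta, fell, and the inhibitor Smad7 rose (0.79), though not without dKO 3 (limma adjusted p = 0.0584). The target Ctgf (0.50) did not pass, and 8 of the 20 changed when control 1 and dKO 1 were both left out. Of 27 Wnt planar cell polarity genes, tied to Cthrc1, 2 rose and 5 fell (25.9% changed, median -0.06). Wnt5a, the main ligand, fell from 89.7 ± 15.8 to 33.7 ± 10.6 (SD, n = 3 each; log2 change -1.42, limma adjusted p = 0.00224), as did Fzd7 (-1.79), Fzd1 (-0.43), Rac1 (-0.42) and Rhoa (-0.38). Another gene, Daglb, shares 51.4% of the exonic bases of Rac1. Celsr1 (0.69) and Celsr2 (1.10) passed upward, but Celsr1 did not pass when any 1 library other than dKO 2 was left out (limma adjusted p from 0.0512 to 0.139), nor Celsr2 without control 2 or dKO 1 (limma adjusted p = 0.0551 and 0.0505). The co-receptor Ror2, a reported binding partner of Cthrc1, did not pass (0.54). The Wnt count that changed was 2 without control 2 and 3 without control 4, dKO 1 or dKO 3, with 0 rising without control 2 or dKO 1.

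Of 23 genes for Atf6 and endoplasmic reticulum chaperones, tied to Thbs4, 0 rose by limma (0 at an unadjusted p under 0.05, and 0 by edgeR) and 5 fell (21.7% changed against 22.0% of all genes, median -0.29). The stress regulator gene Xbp1 went from 187 ± 7.03 to 102 ± 3.31 (SD, n = 3 each; log2 change -0.86, limma adjusted p = 0.000462). Dnajc3 (-0.74), Dnajb9 (-0.69), Pdia3 (-0.61) and Sdf2l1 (-0.79) fell as well, while Atf6 (0.21) and the chaperone gene Hspa5 (-0.45) did not pass. The count was 3 without control 2 or without dKO 2.

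**Figure D5:**
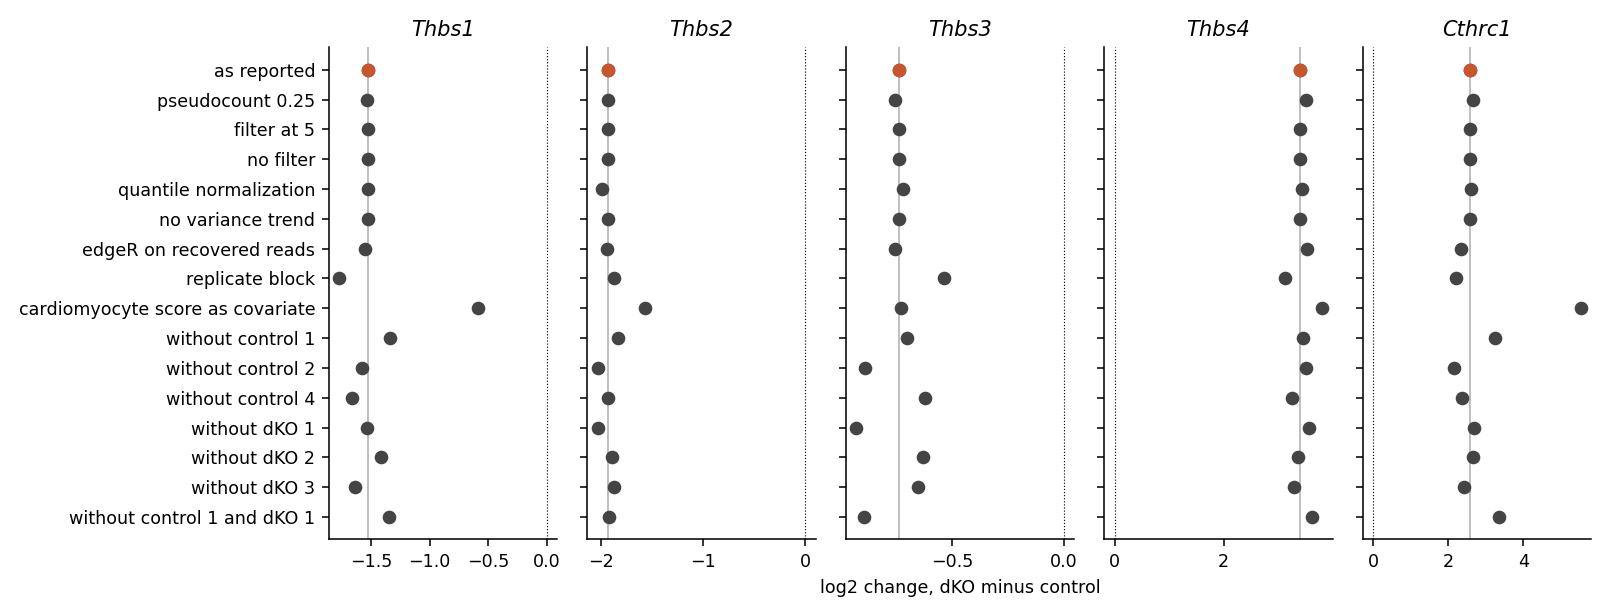
Log2 change (dKO minus control) of each member as reported (orange, grey line) and under 15 alternative settings (black), with a dotted line at 0. Both filters and the fit without a variance trend cannot move the value, and the cardiomyocyte covariate gave -0.59 for Thbs1 and 5.52 for Cthrc1.

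The members' direction was fixed by how they were chosen, so only the size is compared across the 15 alternative settings. Both filters and the fit without a variance trend cannot move it and gave the value as reported. The log2 change ran from -2.03 to -1.57 for Thbs2, from -1.77 to -0.59 for Thbs1 and from -0.93 to -0.54 for Thbs3. It ran from 3.13 to 3.81 for Thbs4 and from 2.15 to 5.52 for Cthrc1. The values of Thbs1 and Cthrc1 farthest from those reported came from the cardiomyocyte covariate.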

How the data were processed

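RNA-seq libraries of 3 control and 3 dKO pools were compared. The authors trimmed with cutadapt and quantified with RSEM 1.3.1 on GRCm38, per the submitters' processing notes; no source at hand states their annotation, normalisation or gene filter. The deposited values are a normalised signal on a linear scale: all 87294 came out as whole reads with 0.5 added, scaled to 1e6 reads of an adjusted library size, within 0.01 reads. The recovered reads cover only genes in the table, and 1 read was worth 0.0487 to 0.0740.

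Groups were compared with limma 3.58.1 (R 4.3.3, variance trend, no covariate) on log2(value + 1) over all 14549 genes, each at 1 or more in at least 3 libraries. P-values are two-sided with Benjamini-Hochberg adjustment and a threshold of 0.05. Replicates are pools, so p-values measure the spread between pools. edgeR 4.0.16 on the recovered reads was an alternative, beside another pseudocount, filters, quantile normalisation, no trend, a block, a covariate and leaving out libraries. The limma and edgeR fits were tested on simulated data, and the other steps were not. Positions and exon lengths came from GENCODE M21, where 14530 of 14549 identifiers were found.

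The members and gene lists were chosen with earlier results of these data known. Named genes were the members; up to 4 genes of smallest p from each list (or, where none passed, the 2 of highest mean value); the 3 most similar profiles per member, without predicted models, pseudogenes and Rik clones; the nearest genes beside Thbs4 and Cthrc1; Meis1 and Meis2. Markers, Mtx1 and other list members were named after their values were seen. Some genes stand in more than 1 list.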

Additional observations from a re-analysis of the deposited data

How the results depend on the processing

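The alternatives that moved most were the cardiomyocyte covariate and the replicate block. With the covariate, 38 genes rose and 141 fell in place of 1427 and 1778, with 148 calls shared, and the lists changed in 1 gene each (receptors, matricellular genes, type 1 repeat proteins, TGF-beta genes, activated fibroblast genes) or 0 (Wnt planar cell polarity genes, Atf6 and chaperone genes, tendon, cartilage and valve genes); of the 32 other named genes that had passed, Itga4, Lox, Rspo1 and Smoc2 still did, and Fzd6 turned to -0.20. Numbers 1 and 2 occur in both groups, and the labels do not say whether same-numbered libraries were paired. Their deviations did not go together (correlations of -0.18 and -0.20), which does not settle whether they were paired. The replicate block, with 1 residual degree of freedom, gave 580 rises and 780 falls, 4 receptors, 1 TGF-beta gene, 2 Wnt genes, 1 chaperone gene, 6 activated fibroblast genes and 1 tendon, cartilage and valve gene; Slc25a32 turned to 0.041, 15 of the 32 named calls were lost (among them Cacna2d1, Col1a1, Tgfb3 and Tgfbr1), and Thbs4 and Cthrc1 were at 3.13 and 2.20. Without a variance trend 4 Wnt genes changed and 3 named calls were lost (Col11a1, Mtx3 and Serinc5), and without control 1 and dKO 1 (chosen after seeing the data) 8 TGF-beta genes did. Leaving out 1 library gave 881 to 1265 rises, 2 to 5 Wnt genes, 3 to 7 chaperone genes, 9 to 14 activated fibroblast genes and 2 to 4 tendon, cartilage and valve genes, and 9 of the 32 named calls were lost at least once (Celsr1, Celsr2, Col11a1, Hapln1, Mtx3, Pdia3, Serinc5, Smad7 and Sox9). Rspo2 gave no value with a filter at 5 or without any 1 of the controls, and Cilp none with a filter at 5 or without any 1 of the dKO libraries. The edgeR test on recovered reads gave 1303 rises and 1653 falls. The causes were not tested. Lengths of the longest coding transcript, also chosen after seeing the data, put dKO Cthrc1 at 86.8 per kb and Thbs3 at 7.10, and control Thbs2 at 145 and Thbs3 at 11.97. Pools of 2 hearts leave the spread between single hearts unmeasured, and with 3 libraries a group no sample was tested as an outlier.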
